A study of Mus musculus with 6 samples.

Results

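Lysosomes are the acidic organelles in which cells break down proteins, sugars, lipids and nucleic acids taken up from outside or delivered by autophagy. Expression of 41 genes of this system was followed here. They encode lysosomal proteases, glycosidases and lipid hydrolases with their cofactors, lysosomal membrane and cholesterol transfer proteins, subunits of the vacuolar proton pump, and Tfeb, Tfe3 and Mitf, transcription factors of the MiT/TFE family. The genes were chosen by name, with earlier results of these data known, and were matched to mouse symbols through their Ensembl IDs. They make up 41 of the 56393 genes in the deposited table. RNA was sequenced from cells that the labels call primary VSMC of the mouse, that is, vascular smooth muscle cells, which contract the vessel wall. The KO group (n = 3 libraries) was labelled as knocked out for Nono, and the WT group (n = 3 libraries) as wild type. Nono encodes a protein that binds DNA and RNA and is found in nuclear paraspeckles. Both groups grew in DMEM with fetal bovine serum and antibiotics, and neither received a further treatment. The labels enter VSMC as a cell line, give no age or strain of the mice and are silent on how the knockout was made and on whether replicates came from separate cultures or animals. A p-value here thus measures the spread between these libraries alone, and that spread may be technical.

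Hydrolases of the lysosome are made in the endoplasmic reticulum, most are tagged with mannose 6-phosphate in the Golgi, and mannose 6-phosphate receptors carry them to the lysosome. The vacuolar proton pump acidifies the lumen, in which these enzymes work best. Many lysosomal genes carry the E-box CACGTG near their start sites, within a longer element known as CLEAR that MiT/TFE factors bind. These factors are held in the cytoplasm when the kinase mTORC1 phosphorylates them at the lysosomal surface. RNA levels do not show where the factors are in the cell.

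Library totals ranged from 56529170 to 61670083 counts. Levels are given as CPM, the counts of a gene relative to the size of its library after correction with TMM factors, and the test was edgeR's quasi-likelihood test over all 18732 genes that passed a filter on low counts, with Benjamini-Hochberg adjustment. Nono was at 523, 502 and 519 CPM in the WT libraries and at 56.0, 54.8 and 51.1 CPM in the KO libraries (log2 fold change -3.25 ± 0.05 SE, adjusted p = 1.63e-09), so its transcript was lower in KO and was still counted there. Among 9 markers of smooth muscle, 6 were higher and 2 lower in KO at an adjusted p under 0.05. Over all tested genes 35.1% were higher and 34.2% lower. The summed level of the 9 markers was 75.0 to 81.3 CPM in WT and 254 to 260.3 CPM in KO. Myh11, the smooth muscle myosin, was under 1 CPM in all 6 libraries. Tagln, an actin-binding protein of smooth muscle, was at 0.983, 1.12 and 0.477 CPM in WT and 15.5, 13.2 and 16.4 CPM in KO, and Cnn1, calponin, at 0, 0 and 0.0636 CPM and 3.77, 3.95 and 2.77 CPM. These markers of the labelled cell type were thus near 0 in WT, but others were not. Smtn, smoothelin, was at 46.8, 49.4 and 47.3 CPM in WT and Acta2, smooth muscle actin, at 15.0, 17.1 and 17.2 CPM, and both were higher in KO (58.1 and 161 CPM on average). Des, desmin, and Myocd, the smooth muscle coactivator, were the markers lower in KO, from 4.29 to 0.848 CPM and from 0.428 CPM to 0 counts. All 9 fibroblast markers were higher in KO, where 35.1% of all tested genes were higher. Their summed level was 1416 to 1615 CPM in WT and 17290 to 18680 CPM in KO. Transcripts of 4 Y-linked genes together reached 149.9 to 163 CPM in KO and 0 to 0.0795 CPM in WT. The genotype therefore cannot be told apart from the presence of Y-linked transcripts, and the part of the marker differences in the results on lysosomal genes was not tested. In such bulk samples, fewer cells of a type and less RNA per cell cannot be told apart.

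The lysosomal genes were mostly higher in KO. Of the 41 genes, 40 passed the filter on low counts and were tested. At an adjusted p under 0.05, 35 of the 40 were higher and 3 lower, where 69.3% of all tested genes passed, 35.1% higher and 34.2% lower. At least a 2-fold increase was reached by 25 of the 40, against 21.6% of all tested genes, and none fell 2-fold. The 3 WT and the 3 KO values did not overlap in 39 of the 40 genes, against 75.5% of all tested genes. The median log2 fold change was 1.23, and 0.03 over all tested genes. Since the list was drawn up with earlier results of these data known, these shares describe it and are no test of it. With scaling by total counts 5 of the 40 were lower. All 9 glycosidases, all 6 lipid and thioester hydrolases or cofactors, all 5 membrane or cholesterol transfer proteins and all 3 aspartic or serine peptidases rose, as did 8 of 9 tested cysteine proteases. Of 5 proton pump subunits 2 rose, and of the 3 MiT/TFE factors 2 rose. The 3 X-linked genes among them, Gla, Lamp2 and Tfe3, all rose, and the other 32 genes that rose are autosomal. Added up, the 41 genes took 0.516% ± 0.012 (SD, n = 3) of the counts of a WT library and 1.25% ± 0.014 (SD, n = 3) of those of a KO library.

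**Figure D1:**
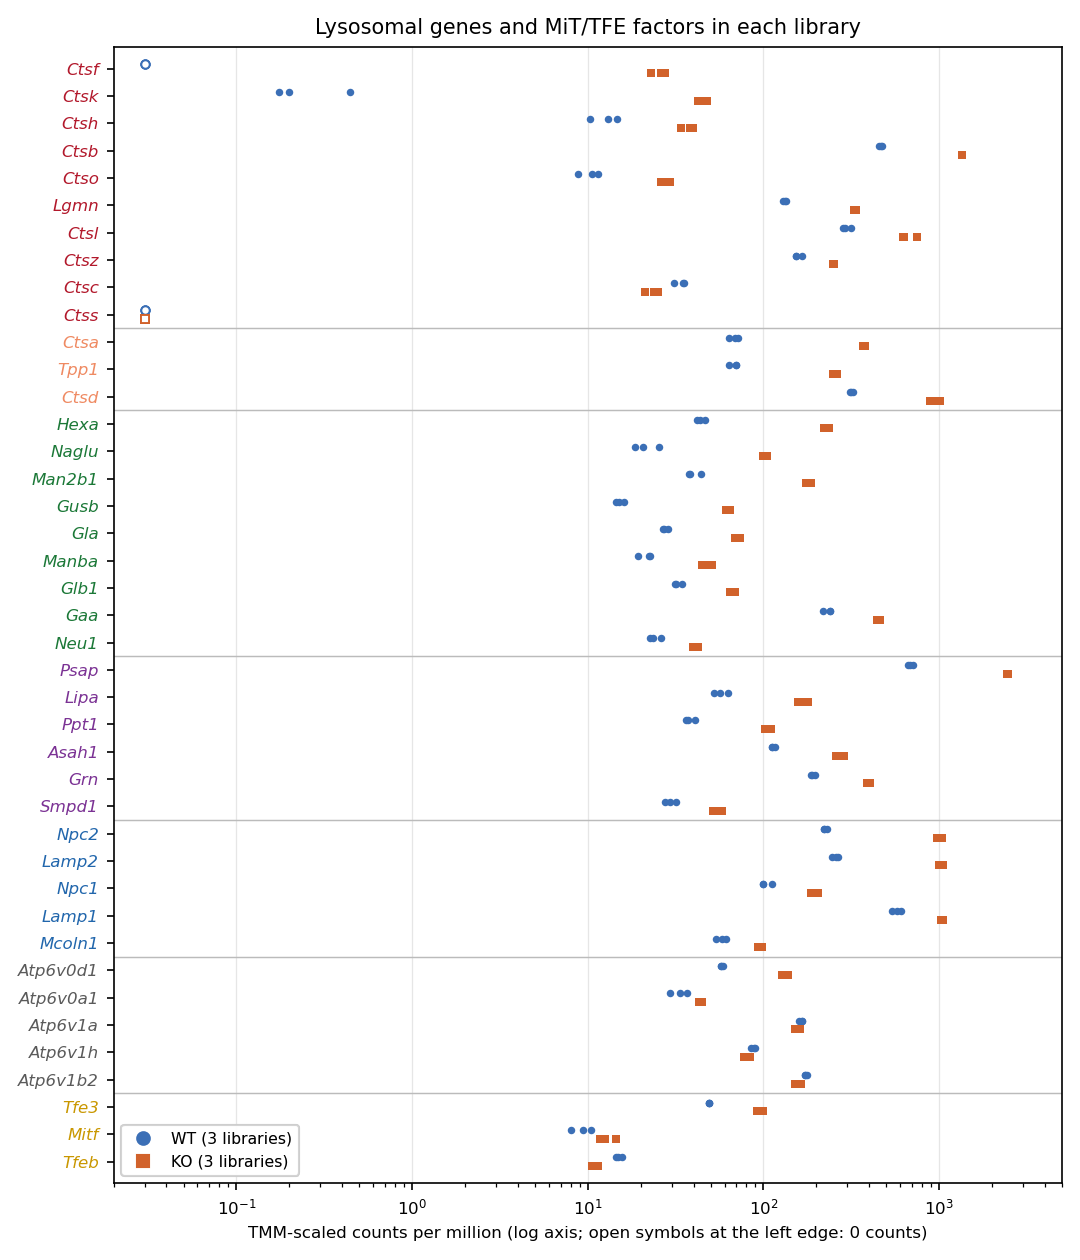
Each row is a gene and each symbol a library (blue circles WT, orange squares KO, n = 3 each), placed by its TMM-scaled CPM on a log axis, with open symbols at the left edge for 0 counts. Gene names are coloured by role. In 35 genes all KO symbols lie to the right of all WT symbols, and in Atp6v1a the groups overlap.

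**Figure D2:**
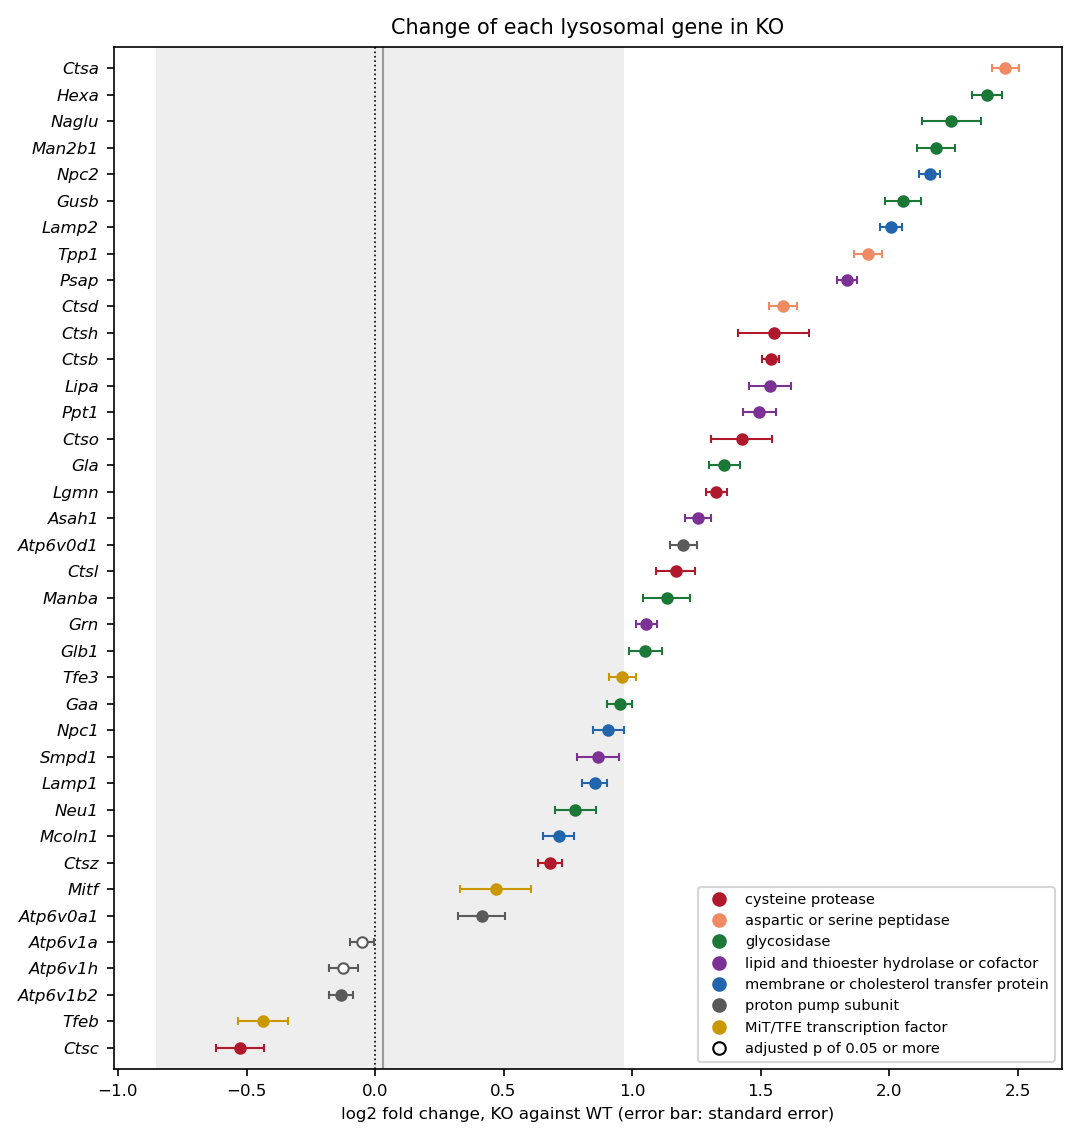
Points give the log2 fold change of KO against WT and bars its standard error, for 38 of the genes. Ctsf and Ctsk, whose changes run off this axis, and Ctss, with 0 counts, are left out. The grey band spans the lower to the upper quartile of all tested genes (-0.85 to 0.96) and the solid line is their median. Ctsa and Hexa lie highest, and open symbols mark Atp6v1a and Atp6v1h, which did not pass the test.

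The starts of these genes were searched for the E-box, which many lysosomal genes carry. RefSeq promoter windows of build GRCm38.p6, which run from 250 bases before a start site to 50 after it, were matched by symbol for 35 of the 41 genes. No window was matched for Asah1, Atp6v1b2, Atp6v1h, Ctsb, Ctsh and Npc1. CACGTG, which reads the same on both strands, was in a window of 13 of the 35 genes (37.1%) and of 8.09% of all 27025 genes with a window. The longer TCACGTGA, which holds CACGTG within it and also reads the same on both strands, was in 6 of the 35 (17.1%) and in 1.12% of all genes. TCATGTG, searched on both strands, was in 6 of the 35 (17.1%) and in 4.31% of all genes. Of all 32851 windows of this length, 7.15% held CACGTG, 0.974% TCACGTGA and 3.77% TCATGTG. These shares describe the sequences of the listed genes and use no counts. The 6 letters CACGTG were in 12 of the 31 genes with a window that rose and, among the 4 with a window that did not rise, in Atp6v1a. The 4 include Ctss, which had no test, and whether the letters go with the rise was not tested. Ctsl, Gaa, Glb1, Lamp1 and Lgmn, which hold CACGTG but not TCACGTGA, are not printed. The stretches printed here surround a copy that begins before the start site of 8 genes, chosen to span the changes from the largest to the smallest. They are those of all 6 genes with TCACGTGA and of Ctsf and Naglu, which hold CACGTG alone. Each is read 5′ to 3′ along the gene, with its span on the genome and its strand, and capitals mark each CACGTG, with the flanking T and A where all 8 letters are there.
Ctsf, chr19:4855060-4855117, plus strand, 79 bases before the start: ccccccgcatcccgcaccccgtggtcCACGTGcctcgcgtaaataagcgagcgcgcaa
Ctsa, chr2:164833734-164833793, plus strand, 13 bases before the start: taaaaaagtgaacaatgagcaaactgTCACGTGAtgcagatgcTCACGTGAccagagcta
Naglu, chr11:101069995-101070052, plus strand, 73 bases before the start: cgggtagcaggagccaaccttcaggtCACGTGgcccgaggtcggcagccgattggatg
Ctsd, chr7:142387893-142387952, minus strand, 99 bases before the start: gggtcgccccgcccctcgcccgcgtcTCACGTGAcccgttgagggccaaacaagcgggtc
Gla, chrX:134601200-134601255, minus strand, 228 bases before the start: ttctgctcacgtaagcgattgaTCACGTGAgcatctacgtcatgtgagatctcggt
Mcoln1, chr8:3500447-3500506, plus strand, 46 bases before the start: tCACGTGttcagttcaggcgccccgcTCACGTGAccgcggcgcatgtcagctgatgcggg
Atp6v0d1, chr8:105566035-105566094, minus strand, 4 bases before the start: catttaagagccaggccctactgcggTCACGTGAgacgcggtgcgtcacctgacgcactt
Atp6v1a, chr16:44139358-44139417, minus strand, 132 bases before the start: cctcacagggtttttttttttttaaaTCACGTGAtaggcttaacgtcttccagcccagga
The distance is that of the first base of the marked copy, the first of 2 in Ctsa and the second of 2 in Mcoln1. The copy of Atp6v0d1 runs across the start site. Both copies have all 8 letters in Ctsa, and 1 of them does in Mcoln1. Ctsf, at the top of the changes, has the 6 letters alone, and Atp6v1a, which did not pass the test, has all 8. A match of letters is a description of the sequence and shows no binding.

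Cysteine proteases were the group with the largest single increases. These are the papain-like cathepsins and legumain, which cut proteins in the lysosome or after secretion. Cathepsin F (Ctsf), whose promoter stretch opens the list, had 0 counts in each of the 3 WT libraries and was at 27.4, 22.9 and 26.2 CPM in the KO libraries. Set against a floor of 3 counts in the WT group as a whole (0.0161 CPM), which covers counting error only, the KO level was at least 1581-fold higher. Cathepsin K (Ctsk), a collagen-degrading protease best known from osteoclasts, was at 0.444, 0.200 and 0.175 CPM in WT and at 42.9, 42.5 and 47.7 CPM in KO. This is a log2 fold change of 7.33 ± 0.27 (SE, adjusted p = 1.11e-07). Both genes were at or near 0 in all WT libraries and were counted in every KO library. Of 8 osteoclast markers, 5 were tested, and 4 of these were lower and none higher in KO. Over all tested genes 34.2% were lower and 35.1% higher. Calcr, Ocstamp and Dcstamp, genes that mark osteoclasts, were at 0 in all 6 libraries. Their summed level was 89.8 to 119 CPM in WT and 38.9 to 41.7 CPM in KO.

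The other cysteine proteases were already expressed in WT. Cathepsin B (Ctsb), an abundant endo- and exopeptidase, was at 467, 452 and 472 CPM in WT and at 1345, 1345 and 1352 CPM in KO. Cathepsin L (Ctsl), an endopeptidase, was at 291, 314 and 285 CPM in WT and at 624, 745 and 632 CPM in KO. Legumain (Lgmn), which cuts after asparagine and matures several cathepsins, was at 129.5, 133 and 135 CPM in WT and at 326, 333 and 338 CPM in KO. All KO libraries of these 3 genes lay above all WT libraries. They rose 2.90-fold, 2.25-fold and 2.51-fold, and for Ctsl KO replicate 2 stood above the other KO libraries. Cathepsin H (Ctsh), an aminopeptidase, was at 10.3, 13.0 and 14.7 CPM in WT and at 33.8, 39.5 and 38.2 CPM in KO. Cathepsin O (Ctso) was at 8.81, 11.5 and 10.5 CPM in WT and at 29.3, 27.5 and 26.1 CPM in KO. Their increases were 2.93-fold and 2.69-fold, with no overlap between the groups. Cathepsin Z (Ctsz), a carboxypeptidase, rose less, from 157 ± 7.32 to 251 ± 2.10 CPM (SD, n = 3 each; log2 fold change 0.68).

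Cathepsin C (Ctsc), the dipeptidyl peptidase that activates granule serine proteases of immune cells, went the other way. It was at 33.7 ± 2.30 CPM in the WT and 23.4 ± 1.98 CPM in the KO libraries (SD, n = 3 each; log2 fold change -0.53 ± 0.09 SE, adjusted p = 0.00107). Cathepsin S (Ctss), the protease that trims the invariant chain in antigen-presenting cells, had 0 counts in all 6 libraries, which allows up to 0.0161 CPM in WT and 0.0174 CPM in KO (3 counts over the group). Of 16 macrophage markers, 8 were also at 0 in all 6 libraries, Ptprc, Adgre1, Itgam and the C1q genes among them. Of the 5 that were tested, 2 were higher and 1 lower in KO. That is 60% called, against 69.3% of all tested genes, so the counts are not read as a result about these markers. The summed level of the 16 was 20.6 to 23.0 CPM in WT and 70.9 to 86.1 CPM in KO. Most of that sum in KO was Cd14 (12.4 ± 0.643 CPM in the WT and 74.5 ± 7.15 CPM in the KO libraries). Csf1r, the receptor that macrophages depend on, rose from 0.206, 0.200 and 0.0636 CPM in WT to 3.67, 2.73 and 3.48 CPM in KO, and Lyz2, lysozyme, fell from 8.54 ± 0.522 to 0.213 ± 0.124 CPM. The 11 cathepsin genes outside the 41 included 9 at 0 counts in all libraries, and both tested ones, Ctse and Ctsw, were lower in KO, with group means of at most 1.16 CPM. Of the secreted and cytosolic inhibitors of these proteases, cystatin C (Cst3) rose from 166 ± 6.21 to 328 ± 5.77 CPM and cystatin B (Cstb) from 78.5 ± 1.99 to 148 ± 0.729 CPM (SD, n = 3 each), 1.98-fold and 1.88-fold.

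The 3 peptidases of other classes rose 3.01-fold to 5.47-fold. Ctsa encodes protective protein, a serine carboxypeptidase that also shields beta-galactosidase and neuraminidase from degradation. It was at 68.5, 71.5 and 63.9 CPM in WT and at 370.3, 367 and 378 CPM in KO, the largest fitted fold of all 41 genes after Ctsf and Ctsk (log2 fold change 2.45 ± 0.05 SE, adjusted p = 6.17e-09). The glycosidase gene Hexa was close to it (2.38 ± 0.06 SE), and by deposited FPKM Hexa rose more, 4.78-fold against 4.65-fold. The increases fitted for the partners of Ctsa were smaller. Beta-galactosidase (Glb1) was at 31.5, 34.3 and 31.8 CPM in WT and at 68.5, 69.0 and 64.8 CPM in KO, and neuraminidase (Neu1) at 24.1 ± 1.72 CPM in the WT and 41.4 ± 1.70 CPM in the KO libraries (SD, n = 3 each). The ratio of Ctsa to Neu1 CPM went from 2.82 ± 0.17 to 8.99 ± 0.26, and that of Ctsa to Glb1 from 2.09 ± 0.08 to 5.52 ± 0.28 (SD, n = 3 each). Neither pair of groups overlapped, and the two-sided exact permutation test gave p = 0.1, the smallest value that 3 against 3 libraries allow, for each of 6 such gene pairs, all chosen after their values had been seen (0.1 after Benjamini-Hochberg adjustment). Tripeptidyl peptidase (Tpp1), lost in a childhood neuronal ceroid lipofuscinosis, was at 70.2, 63.8 and 69.3 CPM in WT and at 256, 248 and 263 CPM in KO. Cathepsin D (Ctsd), the main aspartic protease of the lysosome, was at 313, 325 and 311 CPM in WT and at 945, 892 and 1015 CPM in KO. Every KO library of both genes lay well above every WT library, and the adjusted p of the 3 peptidases was at most 4.8e-08.

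All 9 glycosidases rose, by 1.72-fold to 5.21-fold, with adjusted p of at most 3.67e-05. These enzymes take sugars off glycoproteins, glycolipids, glycosaminoglycans and glycogen. Hexa, the alpha subunit of beta-hexosaminidase, was at 41.9, 46.6 and 43.6 CPM in WT and at 229.9, 221 and 238 CPM in KO. Its log2 fold change was 2.38 ± 0.06 (SE, adjusted p = 1.1e-08). Every KO library lay above every WT library. Gm2a, the activator that presents ganglioside GM2 to this enzyme, rose 1.36-fold, from 38.8 ± 5.70 to 52.9 ± 2.93 CPM (SD, n = 3 each). Naglu, which degrades heparan sulfate, was at 20.5, 25.4 and 18.5 CPM in WT and at 105, 99.5 and 101 CPM in KO. Gusb, beta-glucuronidase, was at 15.0, 16.0 and 14.6 CPM in WT and at 61.5, 64.7 and 62.8 CPM in KO. Both enzymes act on glycosaminoglycans, and in both genes the lowest KO library lay above the highest WT library.

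The mannosidases and galactosidases followed. Man2b1, lysosomal alpha-mannosidase, was at 38.1, 44.3 and 37.7 CPM in WT and at 183, 175 and 186 CPM in KO. Manba, beta-mannosidase, was at 19.4, 22.3 and 22.7 CPM in WT and at 46.2, 44.4 and 50.7 CPM in KO. The alpha enzyme rose 4.54-fold and the beta enzyme 2.19-fold. Gla, the X-linked alpha-galactosidase that is lost in Fabry disease, was at 27.3, 28.5 and 26.8 CPM in WT and at 69.5, 69.0 and 73.2 CPM in KO. Gaa, the acid alpha-glucosidase that degrades glycogen, rose from 232 ± 12.0 to 449 ± 11.4 CPM (SD, n = 3 each; log2 fold change 0.95), just short of 2-fold.

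The 6 lipid and thioester hydrolases or cofactors among the 41 genes all rose, by 1.82-fold to 3.57-fold. Psap encodes prosaposin, the precursor of the saposins that lift sphingolipids out of membranes for their hydrolases. It was at 680.4, 713 and 666 CPM in WT and at 2458, 2439 and 2456 CPM in KO. Its log2 fold change was 1.84 ± 0.04 (SE, adjusted p = 5.27e-09). Grn, progranulin, a secreted and lysosomal protein that binds prosaposin, was at 196, 186 and 189 CPM in WT and at 405, 387 and 396 CPM in KO. In both cofactors the lowest KO library lay above the highest WT library. Lipa, lysosomal acid lipase, which frees cholesterol from its esters, was at 52.1, 62.8 and 56.7 CPM in WT and at 179, 157 and 162 CPM in KO. Asah1, acid ceramidase, was at 116, 111 and 112 CPM in WT and at 258, 265 and 287 CPM in KO. Their increases were 2.90-fold and 2.39-fold, and no KO library overlapped a WT library. Smpd1, acid sphingomyelinase, rose from 29.6 ± 2.15 to 54.0 ± 3.50 CPM (SD, n = 3 each; log2 fold change 0.87).

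Ppt1, palmitoyl-protein thioesterase, was at 37.3, 40.7 and 36.4 CPM in WT and at 110.1, 103 and 109.6 CPM in KO. A stretch of its exons lies over exons of Cap1 on the opposite strand in GENCODE M21, where 3.5% of the exon length of Ppt1 is shared. Cap1 had 7438, 10995 and 12586 counts in the WT libraries and 20225, 19515 and 20986 in the KO libraries, 313% to 549% of those of Ppt1. The strand setting of the counter is not known here. Reads of the shared bases then cannot be told apart, and the size of the Ppt1 change is uncertain. In all, 12 of the 41 genes share exon bases with another gene. For Ctsa, 10.5% of the exon length lies over Pltp on the opposite strand, which had 3386 to 3701 counts in WT and 3525 to 3688 in KO. These were 15.8% to 86.25% of the counts of Ctsa, so the size of the Ctsa change is uncertain as well. The other overlapping genes had at most 38.8% of the counts of the lysosomal gene (Rmc1, over Npc1).

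All 5 membrane and cholesterol transfer genes rose. Lamp1 and Lamp2 encode the main glycoproteins of the lysosomal membrane, and an isoform of Lamp2 is the receptor of chaperone-mediated autophagy. Lamp2, an X-linked gene, was at 246, 264 and 257 CPM in WT and at 1054, 996 and 1035 CPM in KO. The log2 fold change was 2.01 ± 0.04 (SE, adjusted p = 6.31e-09). Lamp1 was at 571 ± 34.2 CPM in the WT and 1033 ± 14.7 CPM in the KO libraries (SD, n = 3 each; log2 fold change 0.85). The ratio of Lamp2 to Lamp1 CPM was 0.450 ± 0.04 in WT and 0.996 ± 0.02 in KO (SD, n = 3 each; exact permutation p = 0.1, two-sided, the smallest possible). The counts do not separate the isoforms of Lamp2. Npc2, the soluble protein that takes cholesterol up in the lumen, was at 222, 229 and 220.2 CPM in WT and at 986, 973 and 1036 CPM in KO. Npc1, the membrane protein that receives cholesterol from Npc2, rose from 103 ± 6.81 to 194 ± 8.44 CPM, 1.88-fold against 4.46-fold for Npc2. Mcoln1, the lysosomal calcium channel TRPML1, rose from 57.6 ± 3.49 to 94.4 ± 2.88 CPM (SD, n = 3 each; log2 fold change 0.71).

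Of the 5 proton pump genes, 2 rose, 1 fell and 2 did not pass the test. That is 60% called, against 69.3% of all tested genes, so the counts are not read as a result about the pump. The pump is made of a cytosolic V1 sector, which splits ATP, and a membrane V0 sector, which passes protons. Of the 5 pump genes among the 41, those of V0 rose and those of V1 did not. Atp6v0d1, the d subunit that joins the sectors, was at 57.5, 57.1 and 59.0 CPM in WT and at 132, 128 and 139 CPM in KO. The log2 fold change was 1.20 ± 0.05 (SE, adjusted p = 1.99e-07). Atp6v0a1, an isoform of the proton-passing a subunit, rose from 33.2 ± 3.69 to 44.2 ± 1.06 CPM (SD, n = 3 each; log2 fold change 0.41). Atp6v1a, the catalytic subunit, was at 165, 159.9 and 166 CPM in WT and at 162, 152 and 159.7 CPM in KO, with overlapping groups (log2 fold change -0.05 ± 0.05 SE, adjusted p = 0.345). Atp6v1h, a regulatory subunit, was at 87.4 ± 2.86 CPM in the WT and 80.3 ± 3.34 CPM in the KO libraries (SD, n = 3 each) and also did not pass (adjusted p = 0.0771). Atp6v1b2, the partner of the catalytic subunit, fell by 0.13 on the log2 scale, from 173 ± 2.88 to 158 ± 6.80 CPM (adjusted p = 0.0343). These small V1 differences depended on the setting: with scaling by total counts Atp6v1a and Atp6v1h passed as lower, at log2 fold changes of -0.18 (adjusted p = 0.00479) and -0.25 (adjusted p = 0.00265). The call of Atp6v1b2 was lost without WT replicate 1, 2 or 3 or KO replicate 2 (adjusted p = 0.0712 to 0.119). It was also lost with a filter of 1 CPM in 3 libraries (adjusted p = 0.0571) and with replicate number as a block. The call of Atp6v1h was gained without WT replicate 2 (adjusted p = 0.0491). The ratio of Atp6v0d1 to Atp6v1a went from 0.354 ± 0.01 to 0.841 ± 0.03 (SD, n = 3 each; exact permutation p = 0.1, two-sided, the smallest possible).

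With the 16 other pump genes that were tested, 9 of 21 rose and 8 fell, beside 35.1% higher and 34.2% lower over all tested genes. Of 10 V1 genes 4 rose and 4 fell, and of 9 V0 genes 3 rose and 4 fell, so the split between the sectors in the 5 genes did not extend to all subunits. Of the V1 genes that rose, Atp6v1b1 and Atp6v1g2 were low even in KO (1.79 and 2.08 CPM on average). Atp6v1d and Atp6v1e1 were at 69.6 and 122 CPM there. Both accessory subunits rose, Atp6ap1 from 59.9 ± 3.75 to 152 ± 30.6 CPM and Atp6ap2, the prorenin receptor, from 69.4 ± 4.62 to 138 ± 12.6 CPM (SD, n = 3 each). Among V1 genes, Atp6v1g1, a subunit of the peripheral stalk, fell from 233, 235 and 239 CPM in WT to 99.3, 107 and 105 CPM in KO. Atp6v1d and Atp6v1f, which meet in the central stalk and were picked after their values were seen, went opposite ways, from 32.2 ± 1.46 to 69.6 ± 0.836 CPM and from 146 ± 5.84 to 72.7 ± 1.01 CPM (SD, n = 3 each). Isoforms with narrower expression differed as well. Atp6v0e2 fell from 9.76 ± 0.128 to 0.936 ± 0.120 CPM, and Atp6v1b1, the B isoform of kidney and ear, rose from 0.208 ± 0.0765 to 1.79 ± 0.547 CPM (SD, n = 3 each). Of the a isoforms, Atp6v0a2, found mostly in the Golgi, fell by 0.47 on the log2 scale, and Tcirg1, used by osteoclasts, was at 123 ± 8.30 CPM in the WT and 114 ± 3.83 CPM in the KO libraries (SD, n = 3 each; adjusted p = 0.159). Atp6v0d2, the d isoform of osteoclasts and macrophages, had 0 counts in all 6 libraries.

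**Figure D3:**
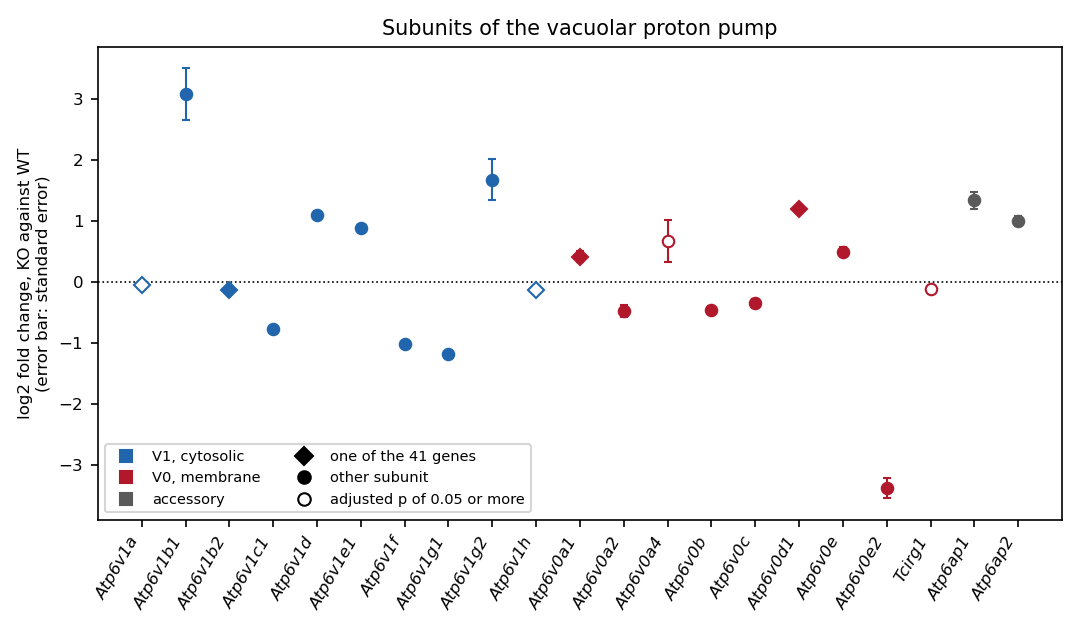
Points give the log2 fold change of KO against WT for the 21 tested genes of the vacuolar proton pump and bars the standard error, with V1 genes in blue, V0 genes in red and accessory genes in grey. Diamonds mark the 5 pump genes among the 41, and open symbols an adjusted p of 0.05 or more. Genes of both sectors lie on both sides of 0.

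The 3 MiT/TFE factors changed in different directions. Tfe3, an X-linked gene, was at 49.2, 49.0 and 49.1 CPM in WT and at 99.5, 94.9 and 92.3 CPM in KO. This is a log2 fold change of 0.96 ± 0.05 (SE, adjusted p = 7.35e-07). Tfeb was lower in KO, at 14.9, 15.7 and 14.4 CPM in WT and 11.2, 10.6 and 11.4 CPM in KO. The log2 fold change was -0.44 ± 0.10 (SE, adjusted p = 0.00368). The groups did not overlap in either gene, and the ratio of Tfe3 to Tfeb went from 3.28 ± 0.14 to 8.63 ± 0.49 (SD, n = 3 each; exact permutation p = 0.1, two-sided, the smallest possible). Mitf, the melanocyte and osteoclast factor of the family, was at 9.41, 8.07 and 10.4 CPM in WT and at 11.7, 12.5 and 14.5 CPM in KO. This is a log2 fold change of 0.47 ± 0.14 (SE, adjusted p = 0.0156). Its call was lost without KO replicate 3 (adjusted p = 0.0569), with scaling by total counts (adjusted p = 0.053) and with log2(FPKM + 0.1) (adjusted p = 0.0519). Tfec, the remaining member of the family, was at 0 in 5 libraries and at 0.0679 CPM in KO replicate 3. Of 6 markers of melanocytes, cells in which Mitf is the master factor, only Pmel passed the filter on low counts. It was not called, and Tyr and Tyrp1 were at 0 in all 6 libraries.

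Nutrients control these factors through a set of proteins on the lysosome surface. Of 27 tested genes, among them those for mTORC1, the Rag GTPases, the Ragulator complex, folliculin, the TSC complex and calcineurin, 11 were higher and 5 lower in KO (11 lower with scaling by total counts), with a median log2 fold change of -0.07. In all 59.3% of them were called, against 69.3% of all tested genes, so the counts are not read as a result about this list. Rragd, the RagD GTPase, had 0 counts in all WT libraries and was counted in every KO library (9.68, 9.64 and 8.45 CPM). Set against the same floor of 3 counts, its level in KO was at least 573.8-fold higher. Rragb, the RagB GTPase, fell from 12.0 ± 0.350 to 3.38 ± 0.128 CPM (SD, n = 3 each). Both belong to the Rag heterodimers, which recruit mTORC1 to the lysosome. Zkscan3, a zinc finger protein described as a repressor of lysosomal and autophagy genes, rose from 40.7, 43.8 and 43.3 CPM in WT to 305, 264 and 296 CPM in KO. The remaining genes named from this list were picked after their values were seen. Flcn, folliculin, which acts on RagC and RagD, rose from 52.4 ± 5.00 to 102 ± 8.22 CPM (SD, n = 3 each). Rheb, the GTPase that activates mTORC1, fell from 219 ± 7.11 to 85.4 ± 0.848 CPM and Mtor from 113 ± 4.26 to 69.7 ± 6.10 CPM. Ppp3ca, a catalytic subunit of calcineurin, the phosphatase that acts on Tfeb, fell from 368 ± 17.1 to 114 ± 4.06 CPM (SD, n = 3 each).

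Levels can be compared between genes only per length, for which the deposited FPKM values (fragments scaled by transcript length and library size) were used. In WT, Psap (237 ± 11.4 FPKM) and Lamp1 (234 ± 11.0 FPKM) stood highest and their libraries overlapped, and Ctsl (138 ± 8.85) and Ctsd (138 ± 4.18) followed, which also overlapped (SD, n = 3). In KO, Psap stood alone at 776 ± 1.36 FPKM. Lamp1 (389.6 ± 5.33) and Ctsd (382 ± 20.2) came next with overlapping libraries, and then Lamp2 (296 ± 25.0) and Ctsl (286 ± 30.6), which overlapped as well (SD, n = 3). Lamp2 moved from the 8th to the 4th place of the 41 genes, Npc2 from the 10th to the 6th, and Ctsa from the 18th to the 11th, while Atp6v1a moved from the 13th to the 22nd and Ctsc from the 27th to the 37th. By CPM per kilobase of exon, 9 of the 10 highest genes of each group were the same, but places differed. There Ctsl took the 9th place in WT (45.7 CPM per kilobase, against 134.6 for Ctsd) and the 11th in KO, and Lamp2 moved from the 15th to the 10th place. Npc2 moved there from the 10th to the 5th place, Ctsa from the 17th to the 14th, Atp6v1a from the 14th to the 21st and Ctsc from the 29th to the 38th. Tfe3 (13.9 ± 1.03 FPKM in WT), Tfeb (7.23 ± 0.991) and Mitf (1.90 ± 0.0812) took the 24th, the 34th and the 38th place (SD, n = 3). The FPKM of all 41 genes summed to 1796 ± 44.1 in WT and 4253 ± 69.0 in KO (SD, n = 3 each), or 0.430% and 1.01% of the FPKM of all genes. Psap made up 13.2% of that sum in WT and 18.2% in KO, and Lamp1 13.1% and 9.16%.

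**Figure D4:**
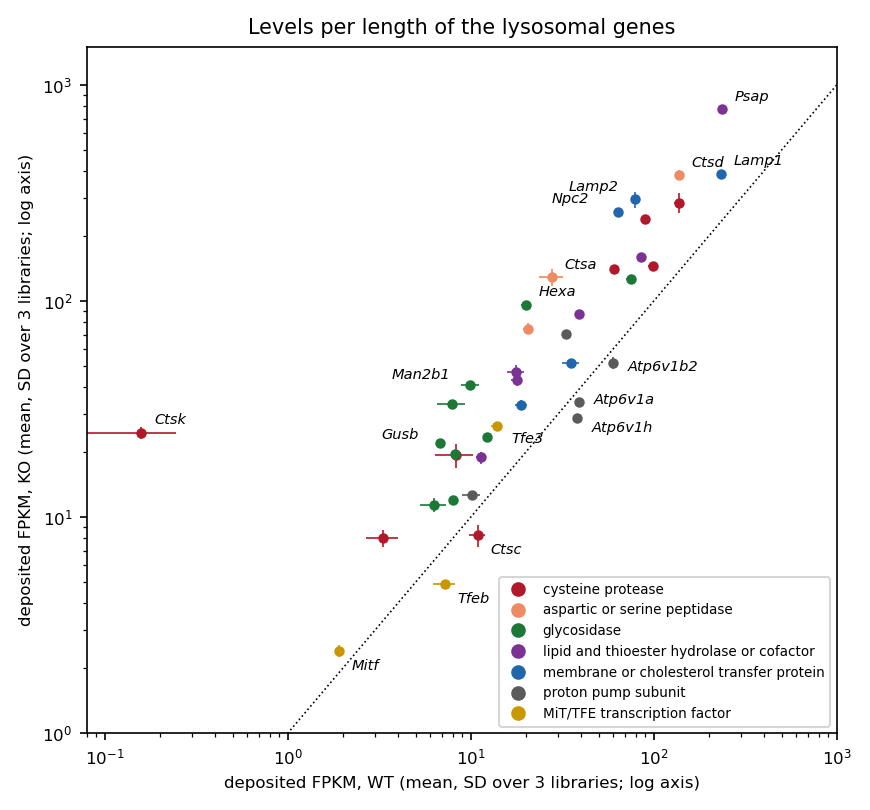
Each point is a gene at its mean deposited FPKM in WT (x) and KO (y) on log axes, with bars for the SD over 3 libraries and colours for the role. The dotted line marks equal levels, and Ctsf and Ctss, listed at 0 in WT, are left out. Points rise above the line for most genes, while Ctsc, Tfeb and the V1 subunits Atp6v1a, Atp6v1b2 and Atp6v1h lie below it.

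Lysosomal genes outside the 41 moved in the same direction more often than not. Of 31 other hydrolases and their cofactors, 25 were higher and 3 lower in KO, with a median log2 fold change of 1.14, where 35.1% of all tested genes were higher and 34.2% lower. The genes with the largest changes among those at 5 CPM or more were 3 sulfatases. Arsa, which desulfates sulfatide, was at 30.4, 33.6 and 26.4 CPM in WT and at 141, 142 and 136 CPM in KO. Arsk, which acts on glucuronate sulfate, was at 11.9, 10.9 and 13.2 CPM in WT and at 50.2, 48.3 and 51.6 CPM in KO, and Arsg rose from 1.48 ± 0.104 to 8.31 ± 1.18 CPM. Sulfatases are activated in the endoplasmic reticulum by the product of Sumf1, which was at 23.0, 18.1 and 20.4 CPM in WT and at 91.5, 88.3 and 88.1 CPM in KO. Of 35 other tested lysosomal membrane genes, 24 were higher and 3 lower (median log2 fold change 0.84), against the same background. Gpr137b, a lysosomal membrane protein that interacts with the Rag GTPases, rose from 22.1, 23.0 and 20.9 CPM in WT to 211, 208 and 201 CPM in KO. Slc29a3, a nucleoside transporter, rose 4.22-fold and Ctns, the cystine exporter lost in cystinosis, 3.81-fold.

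Genes for the sorting of these enzymes were also listed. Of 16 genes for tagging, maturation and receptor transport, 10 were higher and 4 lower, or 2 lower at an adjusted p under 0.01 (median log2 fold change 0.55), beside 35.1% higher and 34.2% lower over all tested genes. Igf2r, the large mannose 6-phosphate receptor, was at 101, 115 and 108 CPM in WT and at 382, 382 and 366 CPM in KO. M6pr, the small receptor, was at 74.2, 72.5 and 74.0 CPM in WT and at 83.5, 87.4 and 85.9 CPM in KO. The large receptor rose 3.48-fold and the small one 1.16-fold, in both cases with no overlap between the groups.

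**Figure D5:**
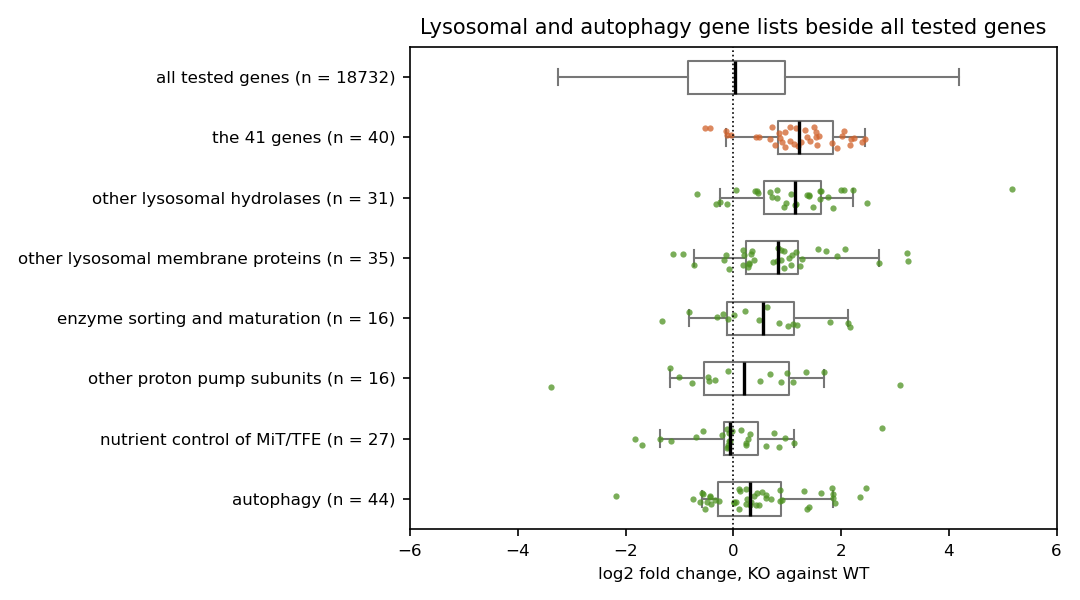
Boxes give the median and quartiles and whiskers the 5th to 95th percentile of the log2 fold change of KO against WT, for all 18732 tested genes and for the tested genes of each list, and points are single genes. Beyond the axis lie 2 of the 41 genes (Ctsf and Ctsk) and 1 nutrient control gene (Rragd). The medians of the 41 genes (1.23) and of the other hydrolases (1.14) lie highest and that of the nutrient control genes (-0.07) lowest.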

How the data were processed

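For every library the deposited table gives raw counts and FPKM by Ensembl ID, per the file headers. The authors' FPKM served only to set levels side by side between genes and in an alternative test. The submitters' processing notes name CASAVA 1.8, HISAT2, SAMtools 1.3.1, edgeR and the build GRCm39. The counter, its strand setting and the annotation are not given in these notes or the labels. GENCODE M21 and RefSeq are of GRCm38 and gave only symbols (55394 of 56393 IDs, 98.23%), chromosomes, lengths, exon overlaps and promoter windows. After filterByExpr and TMM scaling, 18732 genes were tested with edgeR 4.0.16 (robust quasi-likelihood fit, R 4.3.3) on KO and WT without covariates, with an adjusted p threshold of 0.05. Replicates were not copies of 1 library, since their counts differed beyond sampling noise (22.6 to 34.8, chi-square divided by its degrees of freedom). Alternatives were other scalings, filters and thresholds, DESeq2 1.42.0, limma 3.58.1 (voom, and log2(FPKM + 0.1) and log2(FPKM + 1)), autosomal genes, a replicate block and leaving out each library. The 41 genes, the other gene lists and the alternatives were chosen with earlier results of these data known. Named were all 41 genes, with every library's value where a called change reached 2-fold, Nono, the 3 largest called changes of each other list at 5 CPM or more, and a fixed set of partners and paralogues (Gm2a, Tcirg1, Atp6v0a2, Atp6v0d2, Atp6v1b1, M6pr, Igf2r, Cst3, Tfec). Cell type markers are named beside the results they touch, and some were chosen after their values were seen. Some genes that the rule names are not reported here.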

Additional observations from a re-analysis of the deposited data

How the results depend on the processing

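Of the 40 tested genes, 36 kept their call in all 16 alternatives run on them, or 15 for Gla, Lamp2 and Tfe3, which the fit to autosomal genes leaves out. None of the 40 reversed its direction, and the calls that changed were those of Atp6v1a, Atp6v1b2, Atp6v1h and Mitf. The number of the 41 genes called higher stayed between 32 (autosomal genes only) and 35. The number called lower was 3. It was 5 with scaling by total counts, with log2(FPKM + 0.1) and with log2(FPKM + 1), and 2 with a filter of 1 CPM in 3 libraries, with the replicate block, at an adjusted p under 0.01 and without WT replicate 1, WT replicate 3 or KO replicate 2. Scaling by total counts moved the median log2 fold change of all tested genes from 0.03 to -0.10 and the share of called genes that were higher from 50.7% to 45.4%, and the cause of the shift was not tested. Nutrient control genes called lower numbered 5, but 11 with scaling by total counts and 10 with log2(FPKM + 0.1) and with log2(FPKM + 1). Sorting genes called lower were 4, and 2 at an adjusted p under 0.01. Deviations of KO and WT libraries with the same replicate number were nearly uncorrelated (-0.02, 0.02 and -0.01), as were those of other pairs (-0.03 to 0.04). Of the KO libraries only replicate 2 correlated best with its own number. No pairing by number was seen, but such values cannot show that libraries of the same number shared no batch. With the replicate block Atp6v1b2 was no longer called (adjusted p = 0.0777), 35 of the 41 genes were higher, 2 lower and 12233 genes were called in all. With 3 libraries a group, single genes carry wide errors at low counts, and Ctsk in WT rests on 51 counts.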

Other observations

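Autophagy is the route that brings cytoplasm to the lysosome. Of 44 listed autophagy genes, all tested, 24 were higher and 10 lower in KO (edgeR quasi-likelihood test, adjusted p under 0.05), with a median log2 fold change of 0.32 beside 0.03 over all tested genes. In all 77.3% were called, beside 69.3% of all tested genes. Ulk2, a kinase that starts autophagy, was at 13.7, 21.2 and 15.5 CPM in WT and at 94.3, 92.1 and 90.5 CPM in KO. Vps41, a subunit of the HOPS complex that tethers vesicles to lysosomes, was at 27.9, 30.5 and 27.0 CPM in WT and at 140.1, 145 and 152 CPM in KO. Optn, optineurin, a receptor for ubiquitin-tagged cargo, was at 93.0, 89.0 and 87.3 CPM in WT and at 20.4, 19.0 and 20.3 CPM in KO. The first and second of these lay higher in every KO library and the third lower. The genes that follow were picked after their values were seen. The ubiquitin-like proteins that coat the autophagosome included Map1lc3b, which rose 3.59-fold, and Gabarap, which rose 3.71-fold, while Gabarapl2 was at 46.3 ± 3.44 CPM in the WT and 49.8 ± 1.39 CPM in the KO libraries (SD, n = 3 each) and was not called. Sqstm1, the receptor p62, was at 936, 854 and 615 CPM in WT and at 657, 438 and 689.7 CPM in KO, and its adjusted p was 0.164 (edgeR). Wipi1, which binds the growing membrane, rose as well (44.0 ± 6.91 CPM in the WT and 157 ± 6.28 CPM in the KO libraries).

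A few genes of the lysosomal and nutrient control lists outside the 41 differed widely between libraries of a group. Sgsh, the heparan sulfatase that works beside Naglu, was at 13.5, 15.3 and 16.7 CPM in WT and at 27.6, 14.6 and 30.8 CPM in KO, with KO replicate 2 among the WT values, and was not called (edgeR adjusted p = 0.0587). Slc36a1, a lysosomal amino acid transporter, was at 15.6, 12.2 and 17.4 CPM in WT and at 22.7, 63.6 and 20.2 CPM in KO, where KO replicate 2 stood highest (adjusted p = 0.0749). Gsk3b, a kinase of the MiT/TFE factors, was at 64.1, 171 and 73.4 CPM in WT and at 54.2, 41.7 and 42.6 CPM in KO, where WT replicate 2 stood highest (adjusted p = 0.0596).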
